A study of Homo sapiens with 12 samples.

Results

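The STEAP metalloreductases and their partners in iron handling were followed here across 12 expression arrays of LNCaP, a line of human prostate adenocarcinoma cells that respond to androgen. The genes were STEAP1, STEAP2, STEAP3, STEAP4, TFRC, FTH1, FTL, HMOX1 and IREB2, and every probe set whose platform symbol was one of them was taken, whatever its values. Within a gene the probe set with the highest mean over the arrays is called the leading one. This gave 14 of 54675 probe sets, covering 7 of the 9 genes, among 19775 genes named by a probe set of their own: 5 for TFRC, 2 each for STEAP3, STEAP4 and FTL, and 1 each for STEAP1, STEAP2 and HMOX1. No probe set carried the symbol FTH1 or IREB2 in the platform table used, and these genes were not analysed here. The 4 groups of 3 arrays were SRF siRNA with R1881, SRF siRNA with ethanol vehicle, control siRNA with R1881, and control siRNA with ethanol vehicle. R1881 is a synthetic androgen, and SRF, serum response factor, is a transcription factor of growth-responsive and cytoskeletal genes. All groups shared 48 h of androgen deprivation and a transfection, and R1881 at 5 nM or vehicle was added 42 h after it and left for 48 h. All data come from this line, and the labels name biological replicates but not their source cultures, so a p-value here rests on spread that may be technical.

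STEAP proteins are haem-containing membrane enzymes that pass electrons to ferric iron and cupric copper. STEAP2, STEAP3 and STEAP4 carry a cytosolic domain that takes electrons from NADPH, which STEAP1 lacks, and STEAP1 was named as an antigen of prostate epithelium. Iron bound to transferrin enters cells through the transferrin receptor, TFRC, is released and reduced in the endosome, a step for which STEAP3 is known in mouse red cell precursors, and is stored in ferritin, built from FTH1 and FTL chains. HMOX1, haem oxygenase 1, frees iron from haem. The iron regulatory proteins ACO1 and IREB2 bind stem-loops called iron-responsive elements, which steadies TFRC mRNA and blocks translation of ferritin mRNA when iron is scarce, so ferritin mRNA and protein can differ.

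STEAP4, STEAP1 and STEAP2 lie on chromosome 7 in GRCh38.p14, at chr7:88270892-88306894 on the minus strand, chr7:90154469-90164827 on the plus strand and chr7:90211740-90243408 on the plus strand. STEAP1 and STEAP2 are 46.9 kb apart, and STEAP4 lies 1848 kb from STEAP1. STEAP3 lies at chr2:119223834-119265652, TFRC at chr3:196049284-196082090, FTL at chr19:48965309-48966879 and HMOX1 at chr22:35381096-35394207. The 250 bases before the start of the chromosome 7 genes are shown from RefSeq on GRCh38.p14, since R1881 raised STEAP4 and changed STEAP1 and STEAP2 little. Each is written in the gene's own direction, with matches to the GC box GGGCGG on either strand in capitals.
STEAP4, chr7:88306895-88307144, minus strand: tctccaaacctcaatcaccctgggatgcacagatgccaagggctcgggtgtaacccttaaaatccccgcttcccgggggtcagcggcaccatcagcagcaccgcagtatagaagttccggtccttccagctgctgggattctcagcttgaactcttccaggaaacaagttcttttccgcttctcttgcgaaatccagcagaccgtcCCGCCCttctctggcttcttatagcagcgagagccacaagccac
STEAP1, chr7:90154219-90154468, plus strand: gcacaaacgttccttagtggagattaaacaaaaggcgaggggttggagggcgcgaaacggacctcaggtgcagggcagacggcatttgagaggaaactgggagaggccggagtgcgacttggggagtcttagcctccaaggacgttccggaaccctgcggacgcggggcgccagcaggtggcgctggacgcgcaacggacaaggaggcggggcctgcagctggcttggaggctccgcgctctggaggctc
STEAP2, chr7:90211490-90211739, plus strand: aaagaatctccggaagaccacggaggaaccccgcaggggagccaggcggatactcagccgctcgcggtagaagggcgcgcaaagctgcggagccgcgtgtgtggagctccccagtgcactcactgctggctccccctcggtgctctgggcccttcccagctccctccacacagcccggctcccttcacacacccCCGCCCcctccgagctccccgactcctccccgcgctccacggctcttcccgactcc
The STEAP4 and STEAP2 windows hold 1 GC box match each, at positions -44 and -56 from the start, and 42.6% of 35116 RefSeq windows of this length hold at least 1. TGTTCT, the core of an androgen response element, and the CArG box bound by SRF were searched on both strands and are in none of these 3 windows. They are in 12.4% and 1.16% of all windows. A match or its absence describes these letters only.

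The arrays carried the treatment and the silencing. SRF read 4.87 ± 0.13 in SRF-silenced and 6.30 ± 0.18 in control cells under R1881, and 4.74 ± 0.28 in silenced and 6.07 ± 0.14 in control cells in vehicle (log2, SD, n = 3 each). This left 36.9% and 39.5% of the control signal (limma adjusted p = 6.91e-06 and 1.54e-05). The androgen target KLK3, which encodes prostate-specific antigen, rose with R1881 by 3.54 ± 0.06 in silenced and 3.26 ± 0.06 in control cells (log2, SE, adjusted p = 1.13e-11 and 1.4e-11). Under R1881, silenced cells had 51.9% of the KLK3 signal of control cells. For the androgen targets KLK2, TMPRSS2 and FKBP5 this share was 52.1%, 69.3% and 61.7%. The R1881 effect, silenced minus control, differed by 0.93 for KLK2 and -0.59 for FKBP5 (log2, limma adjusted p = 0.000356 and 0.00468). For KLK3 and TMPRSS2 it differed by 0.27 and 0.28 (0.0599 and 0.1). Between 37.3% and 38.0% of probe sets were above a log2 signal of 4 on each array. All 6 luminal prostate markers with a probe set were above 4 on at least 3 arrays, while 0 of 4 leukocyte and 0 of 1 erythroid markers were, LYZ being the highest of these at 4.69 on 1 array. Of the fibroblast markers, 2 of 5 passed, and the summed log2 signal of that list was 18.0 to 18.9 in silenced R1881, 22.0 to 22.2 in silenced vehicle, 17.3 to 18.0 in control R1881 and 20.5 to 21.1 in control vehicle arrays. The 2 that passed were COL1A1, at 5.47 to 6.28, and COL3A1, at 2.89 to 8.06, while COL1A2, DCN and LUM stayed at or under 3.20. Of 3 basal or mesenchymal markers with a probe set, VIM passed, at 6.26 to 8.42, and KRT5 and KRT14 did not. Their summed log2 signal was 12.9 to 13.3 in silenced R1881, 12.3 to 12.4 in silenced vehicle, 10.89 to 10.99 in control R1881 and 11.3 to 11.5 in control vehicle arrays, higher on all silenced than on all control arrays. The part of these marker genes in the results was not tested. The 3-prime minus 5-prime difference of the GAPDH control probe sets, a measure of RNA integrity, was 0.49 ± 0.14 in silenced R1881, 0.36 ± 0.04 in silenced vehicle, 0.46 ± 0.02 in control R1881 and 0.14 ± 0.09 in control vehicle arrays (log2, SD, n = 3 each). The control vehicle arrays were below all arrays of the other groups, and the exact two-sided permutation p was 0.1, the smallest 3 against 3 arrays allow, for R1881 in control cells and for SRF siRNA in vehicle. As a covariate this measure overlaps with these contrasts, so a call lost with it cannot be assigned to RNA integrity.

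STEAP4, an NADPH-dependent ferric and cupric reductase, rose with R1881 from signals near background, and the level reached was lower when SRF was silenced. Its leading probe set read 7.71, 8.26 and 8.45 in SRF-silenced cells with R1881 and 3.25, 2.97 and 2.84 in silenced cells with vehicle. In control cells it read 9.20, 9.11 and 9.12 with R1881 and 2.67, 3.09 and 3.31 with vehicle (log2 signal). The R1881 arrays were all above 7.7 and the vehicle arrays all at or below 3.31, and the 3 silenced R1881 arrays were all below the 3 control R1881 arrays. R1881 raised it by 5.12 ± 0.20 in silenced and 6.12 ± 0.20 in control cells (log2, SE), 34.8-fold and 69.6-fold (limma adjusted p = 2.03e-09 and 3.82e-10). Since these arrays measure RNA of whole cultures, more expressing cells and more RNA per cell cannot be told apart.

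The vehicle signals of STEAP4 were under the filter at 4, so these folds depend on the background estimate. With values under 4 set to 4, the rises were 4.14 in silenced and 5.15 in control cells. Under R1881, silenced cells had 49.7% of the STEAP4 signal of control cells, a change of -1.01 ± 0.20 (log2, SE, adjusted p = 0.00101). In vehicle the change with SRF siRNA was -0.01, with a 95% interval of -0.43 to 0.42. With both vehicle groups near background, a fall could hardly show there, so this does not tell whether SRF siRNA changes STEAP4 without R1881. The difference between the R1881 effects, silenced minus control, was -1.0 ± 0.28 (log2, SE, adjusted p = 0.0266). The other probe set read 5.38, 6.03 and 4.90 in silenced R1881, 3.50, 3.50 and 3.01 in silenced vehicle, 6.77, 6.78 and 6.70 in control R1881 and 2.86, 3.57 and 3.55 in control vehicle arrays. It showed the same order, with rises of 2.10 ± 0.26 in silenced and 3.42 ± 0.26 in control cells and a difference of -1.32 ± 0.37 (log2, SE, adjusted p = 0.0286). The 2 probe sets correlated at 0.96 over the 12 arrays, which share the groups.

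The call on the STEAP4 difference was near its threshold. For the leading probe set it was lost without control vehicle array 1, control R1881 array 1 or 3, or silenced vehicle array 1 (adjusted p = 0.0504 to 0.0615). For the other it was lost in 7 of 12 such omissions, those of control vehicle array 1, any control R1881 array, silenced vehicle array 1 or 2 or silenced R1881 array 1 (0.0519 to 0.0648). With the GAPDH difference as a covariate it was -0.63 for the leading probe set (adjusted p = 0.16). Without the filter on low signals both calls were lost (adjusted p = 0.0954 and 0.11). With values under 4 set to 4, every vehicle signal of the leading probe set became 4. The difference, -1.01 (adjusted p = 0.00441), then equals the change with SRF siRNA under R1881 by construction, and is no separate test of the R1881 effect.

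**Figure D1:**
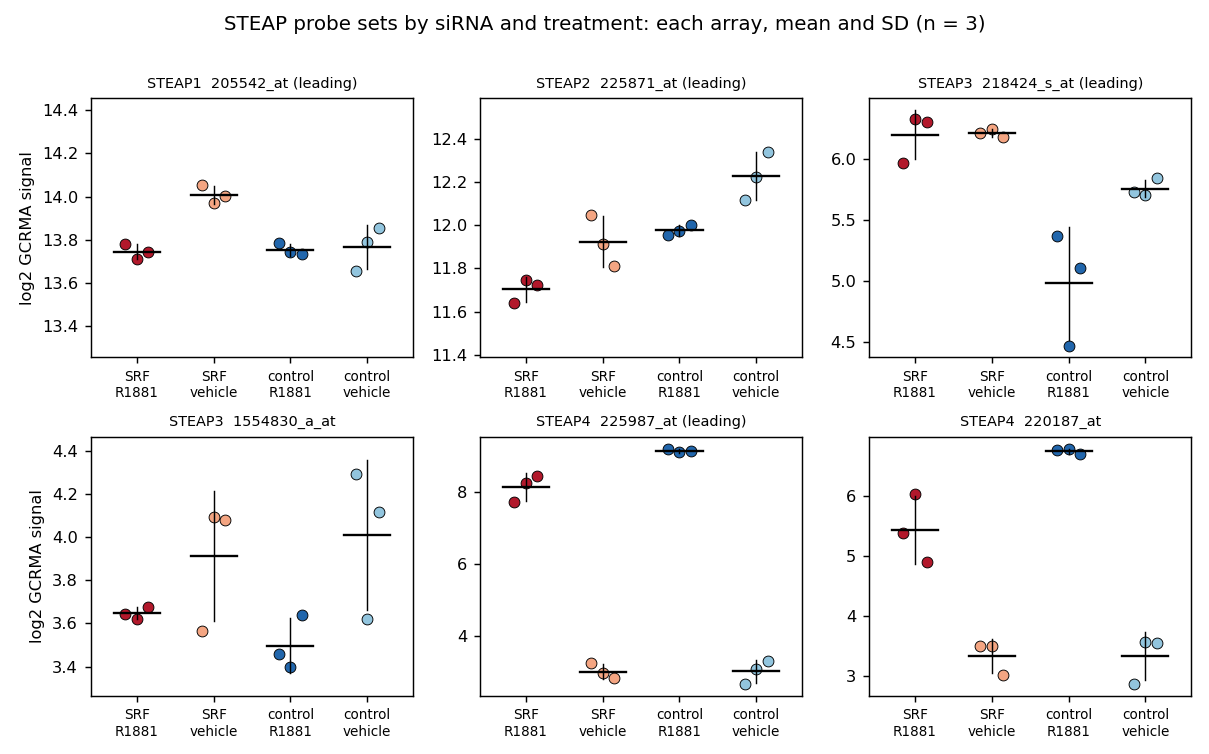
Log2 signal of the STEAP probe sets on each of the 12 arrays, by group, with SRF-silenced and R1881 groups left of their references; points are arrays, horizontal lines the means and vertical lines the SD of 3, and each panel has its own vertical scale, so the panels are not to be compared. STEAP4 is high only in the 2 R1881 groups, with control above silenced cells, while the group means of STEAP1 and STEAP2 span 0.26 and 0.52.

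STEAP1 and STEAP2, the neighbours on chromosome 7, moved little. STEAP1, which relies on other reductases for its electrons, read 13.78, 13.71 and 13.74 in silenced R1881, 14.05, 13.97 and 14.001 in silenced vehicle, 13.78, 13.74 and 13.73 in control R1881 and 13.65, 13.79 and 13.86 in control vehicle arrays (log2 signal). The silenced vehicle arrays were the highest, and the other groups overlapped. R1881 lowered it in silenced cells with a log2 change of -0.26 ± 0.07 (SE, adjusted p = 0.00984). In control cells the change was -0.01, with a 95% interval of -0.17 to 0.14. After quantile normalization the change in silenced cells was 0.038, with the opposite sign. SRF siRNA changed it by 0.24 ± 0.07 in vehicle (adjusted p = 0.0151), or by 0.19 without control vehicle array 1 (adjusted p = 0.0584) and 0.22 with the GAPDH difference as a covariate (0.144), and the difference of R1881 effects was -0.25 (adjusted p = 0.113).

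STEAP2, a ferric and cupric reductase, read 11.64, 11.75 and 11.72 in silenced R1881, 12.05, 11.91 and 11.81 in silenced vehicle, 11.95, 11.97 and 12.00 in control R1881 and 12.12, 12.23 and 12.34 in control vehicle arrays (log2 signal). Control vehicle arrays were the highest and silenced R1881 arrays the lowest, with the middle groups overlapping. SRF siRNA lowered it by a change of -0.27 ± 0.08 under R1881 and -0.30 ± 0.08 in vehicle (log2, SE, adjusted p = 0.0163 and 0.0104). R1881 lowered it by changes of -0.22 ± 0.08 in silenced and -0.25 ± 0.08 in control cells (log2, SE, adjusted p = 0.0476 and 0.0235). The difference of these effects was 0.03, with a 95% interval of -0.23 to 0.29. The R1881 call was lost in 9 of 12 omissions of 1 array in silenced cells, all but those of control vehicle array 1 or 3 or silenced vehicle array 3 (adjusted p = 0.06 to 0.162), and in 4 of 12 in control cells, those of control vehicle array 2 or 3 or control R1881 array 1 or 2 (0.0518 to 0.0888). The SRF siRNA call under R1881 was lost without silenced R1881 array 1 (0.054). With the GAPDH covariate the R1881 calls in silenced and control cells and the SRF siRNA call in vehicle were lost (adjusted p = 0.072, 0.151 and 0.0527), and after quantile normalization that under R1881 (0.0837). The R1881 change in control cells with the covariate was -0.32 ± 0.16 (log2, SE), larger than without it but with a wider SE.

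STEAP3, a ferric reductase of endosomes, was lower with R1881 in control cells, and higher with SRF siRNA under R1881. Its leading probe set read 5.97, 6.32 and 6.30 in silenced R1881, 6.21, 6.25 and 6.18 in silenced vehicle, 5.37, 4.47 and 5.10 in control R1881 and 5.73, 5.70 and 5.84 in control vehicle arrays (log2 signal). The control R1881 arrays lay below all others, and the silenced arrays lay above all control arrays. R1881 changed it by -0.01 in silenced cells, with a 95% interval of -0.415 to 0.389, and by -0.78 ± 0.18 in control cells (log2, SE, adjusted p = 0.00343). SRF siRNA raised it 2.33-fold under R1881 (1.22 ± 0.18, log2, SE, adjusted p = 0.00016), against 1.37-fold in vehicle, where the test missed the threshold (adjusted p = 0.0585).

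The STEAP3 difference of R1881 effects was 0.76 ± 0.26 (log2, SE, adjusted p = 0.0619). It passed without control R1881 array 1 (adjusted p = 0.0176) or silenced R1881 array 1 (0.0461). It also passed with 1 probe set per gene (0.0473) and, narrowly, with a trended, robust variance model (0.05 after rounding). The vehicle effect of SRF siRNA passed without control R1881 array 1 (0.0284) or 2 (0.00598). It also passed with 1 probe set per gene (0.0477) and with only the groups of the contrast fitted (0.00305). With the GAPDH covariate the R1881 change in control cells was -0.99 (0.0507). The other probe set was between 3.40 and 4.29, above 4 only on 4 vehicle arrays, through which it passed the filter, and correlated with the leading one at only 0.41. Its change with R1881 in control cells was -0.51 ± 0.17 (log2, SE, adjusted p = 0.0252), a call lost without control vehicle array 1 or 3 or control R1881 array 1 or 2 (0.0647 to 0.106). The call was also lost with values under 4 set to 4, where the change was -0.14 (0.163), with the GAPDH covariate, where it was -0.20 (0.668), and without the filter (0.089). SRF siRNA changed it by 0.15 under R1881, with no call, so the rise rests on 1 of the 2 probe sets.

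TFRC, the receptor that brings transferrin-bound iron into the cell, was higher with SRF siRNA under both treatments. The leading probe set read 12.57, 12.49 and 12.57 in silenced R1881, 12.46, 12.41 and 12.35 in silenced vehicle, 11.82, 11.93 and 11.93 in control R1881 and 12.08, 12.03 and 12.30 in control vehicle arrays (log2 signal). All silenced arrays were above all control arrays, and the control R1881 arrays were the lowest. SRF siRNA raised it by 0.65 ± 0.08 under R1881, or 1.57-fold, and by 0.27 ± 0.08 in vehicle (log2, SE, adjusted p = 4.54e-05 and 0.0179). R1881 changed it by 0.14 in silenced cells, which was not called (adjusted p = 0.199), and lowered it in control cells, with a change of -0.24 ± 0.08 (adjusted p = 0.0264).

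The TFRC probe set with the next highest mean read 12.49, 12.42 and 12.45 in silenced R1881, 12.56, 12.45 and 12.39 in silenced vehicle, 11.77, 11.66 and 11.74 in control R1881 and 12.04, 12.05 and 12.05 in control vehicle arrays (log2 signal). The order of groups was alike, except that the silenced groups overlapped. SRF siRNA raised it by 0.73 ± 0.07 under R1881 and 0.42 ± 0.07 in vehicle (log2, SE, adjusted p = 4.64e-06 and 0.000413), and R1881 changed it by -0.01 in silenced and -0.33 ± 0.07 in control cells (adjusted p = 0.00184 in control cells). The difference of R1881 effects was 0.38 ± 0.12 for the leading and 0.32 ± 0.10 for the next (log2, SE, adjusted p = 0.0434 and 0.0455). These calls were lost in 9 and 11 of 12 omissions of 1 array, among them every control R1881 and every silenced R1881 array (adjusted p = 0.0551 to 0.101 and 0.0654 to 0.108). The calls of the leading probe set were also lost for R1881 in control cells without control vehicle array 3 or control R1881 array 1 (0.0951 to 0.105), and for SRF siRNA in vehicle without control vehicle array 1 or 2 or silenced vehicle array 1 (0.0553 to 0.0709). With the GAPDH covariate the calls for R1881 in control cells were lost for the leading and the next probe set (adjusted p = 0.374 and 0.111), as were those for the differences (0.129 and 0.124) and that for SRF siRNA in vehicle on the leading one (0.0915). The R1881 changes in control cells were then -0.20 ± 0.16 and -0.30 ± 0.14 (log2, SE), so the SE grew more than the changes shrank. The calls for SRF siRNA under R1881 held in all alternatives run on both.

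The other TFRC probe sets gave no call. The third in mean signal read 8.93, 8.95 and 7.18 in silenced R1881, 8.54, 8.97 and 8.78 in silenced vehicle, 8.39, 8.24 and 8.18 in control R1881 and 8.76, 8.43 and 8.52 in control vehicle arrays (log2 signal). Silenced R1881 array 3 stood apart from its group, and without it the SRF siRNA effect under R1881 was 0.67 (adjusted p = 0.00197), against 0.09 with it. That array also had the highest GAPDH 3-prime minus 5-prime difference of all arrays, 0.64, against 0.37 and 0.45 in its group. With the GAPDH difference as a covariate, the SRF siRNA effect in vehicle on this probe set was 1.32 (adjusted p = 0.00773), against 0.19 without it. A direct link between the 2 readings of that array was not tested. The fourth probe set ran from 3.82 to 4.21, above 4 on just 3 arrays, and the fifth, at 2.24 to 2.35, did not pass the filter.

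FTL, the ferritin light chain, was lowered by R1881 in control cells, and much less so when SRF was silenced. Its mRNA holds an iron-responsive element near the start, of which only a part is shown, from RefSeq on GRCh38.p14. The CAGTGT loop, bases 39 to 44 after the gene's start, is in capitals because it is the site the iron regulatory proteins bind. The part shown stops soon after the loop, where the sequence window used here ended, so the rest of the stem-loop is missing.
FTL iron-responsive element, chr19:48965329-48965358, plus strand: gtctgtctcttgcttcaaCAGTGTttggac
This element sets translation, which arrays do not measure. The leading probe set read 12.64, 12.62 and 12.71 in silenced R1881, 13.00, 12.85 and 12.74 in silenced vehicle, 11.83, 11.82 and 11.81 in control R1881 and 12.53, 12.66 and 12.73 in control vehicle arrays (log2 signal). The control R1881 arrays stood apart, below 11.9, and all other arrays were above 12.5. R1881 changed it by -0.21 ± 0.08 in silenced cells, which missed the threshold (adjusted p = 0.0608), and lowered it in control cells to 56.7%, a change of -0.82 ± 0.08 (log2, SE, adjusted p = 6.06e-06).

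The difference of R1881 effects on FTL was 0.61 ± 0.12 (log2, SE, adjusted p = 0.00416), and SRF siRNA raised FTL by 0.83 ± 0.08 under R1881 and 0.22 ± 0.08 in vehicle (adjusted p = 6.84e-06 and 0.0442). The other FTL probe set read 12.24, 12.17 and 12.23 in silenced R1881, 12.45, 12.50 and 12.38 in silenced vehicle, 11.53, 11.54 and 11.50 in control R1881 and 12.37, 12.28 and 12.23 in control vehicle arrays. It too was lowest on the control R1881 arrays, and its difference was 0.54 ± 0.10 (log2, SE, adjusted p = 0.00269). R1881 lowered it, with changes of -0.23 ± 0.07 in silenced and -0.77 ± 0.07 in control cells (adjusted p = 0.0165 and 1.91e-06). SRF siRNA raised it by 0.69 ± 0.07 under R1881 (adjusted p = 6.68e-06) and changed it by 0.15 ± 0.07 in vehicle, without a call. Both differences kept their call in every alternative run, among them each of the 12 omissions. Of the smaller effects, SRF siRNA in vehicle on the leading probe set lost its call in 9 of 12 omissions, all but those of control vehicle array 3, silenced vehicle array 3 or silenced R1881 array 3 (0.0529 to 0.158), and with the GAPDH covariate (0.346). R1881 in silenced cells gained a call for the leading probe set without silenced vehicle array 3 (0.0289) or array 3 of both silenced groups (0.033). It also gained one with 1 probe set per gene (0.0454), a common median (0.0396), quantile normalization (0.0343) or a trended, robust variance model (0.0213). For the other probe set the call was lost without array 2 of silenced vehicle or of silenced R1881 (0.0582 to 0.0663). It was also lost with only the groups of the contrast fitted (0.0525) and with the GAPDH covariate (0.0671). Ferritin genes have processed pseudogenes, and both FTL probe set names carry the x_at ending of sets that may cross-hybridise, so signal from such copies cannot be told apart.

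HMOX1, which opens the haem ring and frees its iron, rose with R1881 and with SRF siRNA. It read 7.63, 7.27 and 7.77 in silenced R1881, 6.13, 5.82 and 5.92 in silenced vehicle, 5.88, 6.01 and 5.93 in control R1881 and 4.61, 4.62 and 4.32 in control vehicle arrays (log2 signal). The silenced R1881 arrays were the highest and the control vehicle arrays the lowest, with the 2 groups that had only R1881 or only SRF siRNA between them and overlapping. R1881 raised it 3.03-fold in silenced and 2.68-fold in control cells (1.60 ± 0.14 and 1.42 ± 0.14, log2, SE), and SRF siRNA raised it 3.06-fold under R1881 and 2.71-fold in vehicle (1.62 ± 0.14 and 1.44 ± 0.14). The R1881 effects differed by 0.18, with a 95% interval of -0.24 to 0.60 (adjusted p = 0.575).

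**Figure D2:**
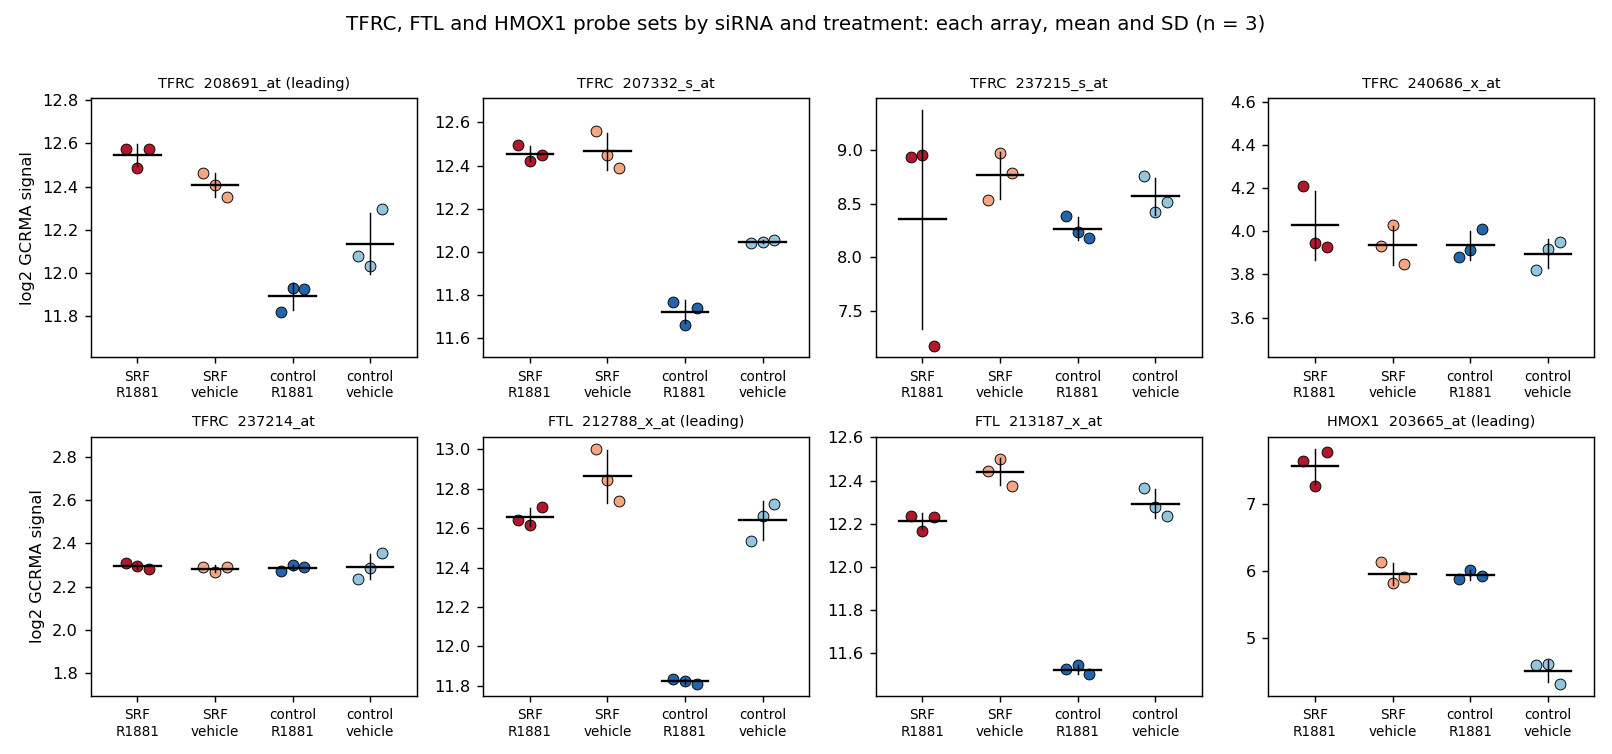
Log2 signal of the TFRC, FTL and HMOX1 probe sets on each of the 12 arrays, drawn as for the STEAP probe sets, with a scale of its own in each panel and the leading probe set marked. FTL is lowest on the 3 control R1881 arrays, the 2 bright TFRC probe sets are higher on all silenced arrays than on the control arrays of the same treatment, and HMOX1 is highest with SRF siRNA and R1881 together.

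Counted together, 13 of the 14 probe sets passed the filter, both STEAP4 probe sets only through R1881 arrays and the other STEAP3 probe set only through vehicle arrays. With R1881 in silenced cells, 3 rose and 3 fell, where 20.8% and 26.7% of all 21526 tested probe sets did (47.5% in either direction). In control cells 3 rose and 7 fell, against 24.0% and 31.8% of all (55.8%). The difference of effects was called positive for 4 and negative for 2, against 9.79% and 8.84% of all (18.6%). SRF siRNA raised 6 and lowered 3 under R1881, against 29.0% and 24.2% of all (53.1%), and raised 5 and lowered 1 in vehicle, against 26.4% and 22.7% of all (49.1%). The median log2 change of the 13 was -0.01 for R1881 in silenced and -0.25 in control cells, against -0.06 and -0.07 over all probe sets. For SRF siRNA it was 0.15 under R1881 and 0.19 in vehicle, against 0.04 and 0.03. With so many of all probe sets called, being called sets no gene apart, and the probe sets of 1 gene are not independent. The difference count was 2 without control R1881 array 3, and 3 without control vehicle array 1, control R1881 array 1 or 2, or silenced vehicle array 2. The count for SRF siRNA in vehicle was 3 without control vehicle array 1.

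**Figure D3:**
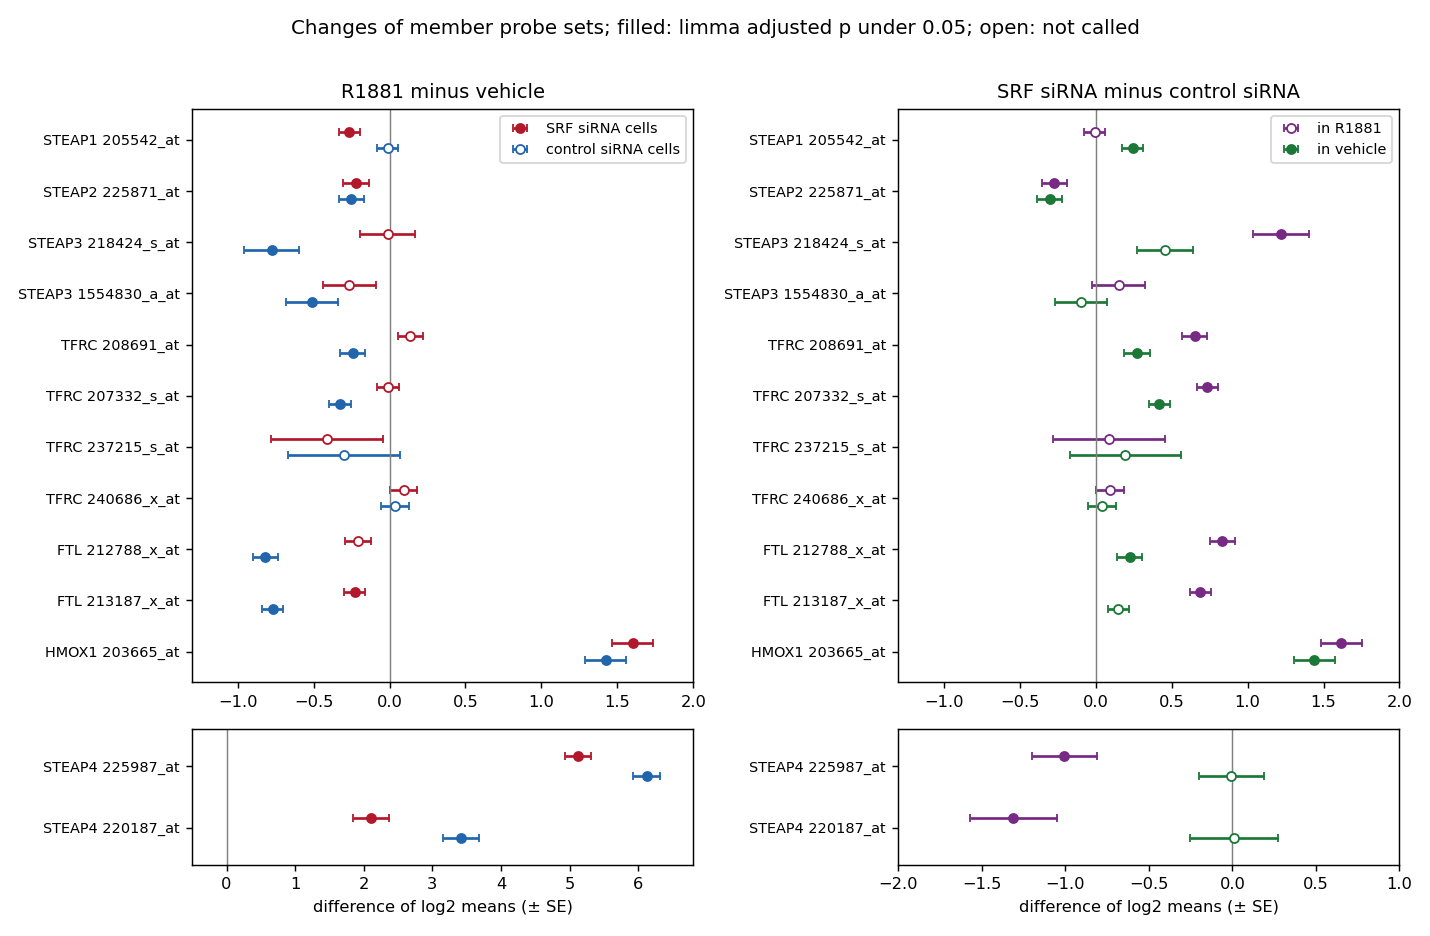
Log2 change with its SE for the 13 tested probe sets, R1881 minus vehicle at left and SRF siRNA minus control siRNA at right, filled where limma's adjusted p was under 0.05; STEAP4 has panels of its own with another scale. The STEAP4 rises with R1881, 5.12 in silenced and 6.12 in control cells for the leading probe set, are larger than the changes of the other genes, and FTL falls further in control than in silenced cells.

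Other genes of iron, haem and redox handling were counted from 8 lists of 98 genes, 90 of them with a probe set and 73 tested, each by its leading probe set. Over the leading probe sets of all 10265 genes, R1881 raised 24.4% and lowered 26.4% in silenced cells (50.8% in either direction) and raised 26.1% and lowered 32.9% in control cells (59.1%). The difference was positive for 11.4% and negative for 9.28% (20.7%). SRF siRNA raised 32.4% and lowered 24.5% under R1881 (56.9%) and raised 29.3% and lowered 23.8% in vehicle (53.1%).

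Of 8 iron uptake genes tested, R1881 raised 3 and lowered 2 in silenced cells, and raised 4 and lowered 2 in control cells (medians of 0.23 and 0.19, against -0.03 and -0.05 over all genes). SLC11A2, the endosomal ferrous iron transporter DMT1, rose by 0.44 ± 0.08 in silenced and 0.47 ± 0.08 in control cells (log2, SE, adjusted p = 0.000616 and 0.000274). The lysosomal channel gene MCOLN1 rose by 0.63 and 0.74, and SLC39A8, a zinc and iron transporter, fell by 1.01 and 0.78 in silenced and control cells on the log2 scale. SRF siRNA raised SLC39A14, a transporter of iron not bound to transferrin, by 0.45 under R1881, and SNX3, a sorting nexin of recycling endosomes, by 0.30 under R1881 and 0.39 in vehicle. The count for R1881 in silenced cells was 3 rather than 5 without silenced R1881 array 3, without the filter or with the GAPDH covariate, and that in control cells was 2 with the covariate.

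Of 8 genes of iron export and the hepcidin axis, 1 passed the filter, SLC40A1, which encodes ferroportin, the iron exporter. It read 3.34, 3.52 and 3.50 in silenced R1881, 5.03, 4.73 and 5.90 in silenced vehicle, 3.47, 3.05 and 2.99 in control R1881 and 3.62, 3.63 and 3.57 in control vehicle arrays (log2 signal). It was above 4 only on the silenced vehicle arrays, through which it passed the filter. There SRF siRNA raised it by 1.61 ± 0.24 (log2, SE, adjusted p = 0.000161), and R1881 lowered it in silenced cells, with a change of -1.77 ± 0.24 (adjusted p = 8.29e-05), against a change of -0.43 in control cells with no call, a difference of -1.33 (adjusted p = 0.0173). The call on this difference was lost without the filter and with the GAPDH covariate.

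Of 4 genes of iron sensing and ferritin turnover, R1881 raised 1 and lowered 2 in silenced cells and raised 2 and lowered 1 in control cells. NCOA4, the receptor that carries ferritin to the lysosome, rose by 0.21 ± 0.08 in silenced and 0.49 ± 0.08 in control cells and fell with SRF siRNA by 0.50 under R1881 and 0.22 in vehicle (log2). ACO1, the iron regulatory protein 1, moved the other way in all 4 contrasts, by -0.22 and -0.30 with R1881 in silenced and control cells and by 0.41 and 0.32 with SRF siRNA under R1881 and in vehicle, all called. FBXL5, part of the ligase that degrades IREB2, rose with R1881 in control cells by 0.23 and with SRF siRNA in vehicle by 0.36. SKP1, a subunit of such ligases, fell with R1881 by 0.26 in silenced cells. The count for R1881 in silenced cells was 1 rather than 3 without control R1881 array 1 or 2, silenced vehicle array 1 or 2, or silenced R1881 array 1 or 3, and that in control cells was 0 with the GAPDH covariate.

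Of 9 tested genes of other metal reductases and copper handling, SRF siRNA raised 1 and lowered 6 under R1881 (median -0.46, against 0.06 over all genes), and raised 1 and lowered 3 in vehicle. ATP7B, a copper-exporting ATPase, read 5.59, 5.59 and 5.82 in silenced R1881, 5.34, 5.95 and 5.97 in silenced vehicle, 7.00, 7.04 and 7.24 in control R1881 and 5.67, 5.41 and 5.08 in control vehicle arrays (log2 signal). The control R1881 arrays were above all others. R1881 changed it by -0.09 in silenced cells, which was not called, and by 1.71 ± 0.18 in control cells, a difference of -1.79 ± 0.25 (log2, SE, adjusted p = 0.000596). SLC31A1, the copper importer, rose with SRF siRNA by 1.16 under R1881 and 1.39 in vehicle. Its relative SLC31A2 rose with R1881 by 1.28 in silenced and 1.34 in control cells. ATOX1, the chaperone that hands copper to the exporting ATPases, fell with SRF siRNA by 0.62 under R1881 and 0.85 in vehicle, and with R1881 by 0.48 in silenced and 0.71 in control cells. CYB561A3, a reductase of the cytochrome b561 family, fell with R1881 by 0.63 in silenced cells. The count for SRF siRNA in vehicle was 2 rather than 4 without control vehicle array 2 or 3 or silenced vehicle array 3, and without the filter. The duodenal ferric reductase gene CYBRD1 did not pass the filter, its highest signal being 2.73.

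Of 10 haem synthesis genes tested, SRF siRNA raised 5 and lowered 2 under R1881 and raised 4 and lowered 2 in vehicle. CPOX, which makes protoporphyrinogen, was lowest on the control R1881 arrays, at 7.24, 7.24 and 7.43, against 8.59, 8.76 and 8.73 on the silenced R1881 arrays (log2 signal). R1881 changed it by 0.03 in silenced and -0.90 ± 0.09 in control cells, a difference of 0.93 ± 0.12 (log2, SE, adjusted p = 0.00034). FECH, which inserts iron to make haem, rose with R1881 by 0.94 in silenced and 1.00 in control cells. ALAS1, the rate-limiting enzyme outside red cells, fell with SRF siRNA by 0.65 under R1881 and 0.46 in vehicle (log2). PPOX and UROS, enzymes of later steps, changed with SRF siRNA by 0.56 and -0.38 under R1881 and by 0.46 and -0.65 in vehicle, all called.

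Of 8 genes of haem breakdown and transport, R1881 raised 3 and lowered 3 in silenced and raised 4 and lowered 4 in control cells. FLVCR2, a transporter of the family of the haem exporter FLVCR1, rose with R1881 by 1.20 ± 0.22 in silenced and 1.85 ± 0.22 in control cells (log2, SE, adjusted p = 0.000835 and 2.13e-05). FLVCR1 rose with SRF siRNA by 0.68 under R1881 and 0.63 in vehicle, and BLVRA, biliverdin reductase A, fell by 0.80 and 0.46. HMOX2, the constitutive haem oxygenase, rose with R1881 by 0.48 in silenced and 0.63 in control cells. BLVRB, biliverdin reductase B, rose with R1881 by 1.24 ± 0.07 in silenced and 0.72 ± 0.07 in control cells, a difference of 0.52 ± 0.10 (log2, SE, adjusted p = 0.00492), and fell with SRF siRNA by 0.43 under R1881 and 0.95 in vehicle. ABCG2, an exporter of porphyrins and drugs, averaged 2.34 ± 0.06 in silenced R1881, 5.10 ± 0.24 in silenced vehicle, 2.34 ± 0.07 in control R1881 and 7.83 ± 0.21 in control vehicle arrays (log2, SD, n = 3 each). Both R1881 groups were under 4, so the difference of its R1881 effects, 2.73, follows the vehicle levels.

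Of 19 genes of iron-sulfur cluster assembly and mitochondrial iron, SRF siRNA raised 11 and lowered 4 under R1881 and raised 8 and lowered 3 in vehicle (medians of 0.27 and 0.25, against 0.06 and 0.04 over all genes). ISCA1, a cluster carrier, rose by 0.96 and 0.78, and FDX2, a ferredoxin of cluster assembly, fell by 0.54 and 0.88 on the log2 scale, under R1881 and in vehicle. SLC25A37, the mitochondrial iron importer mitoferrin 1, rose with R1881 in silenced cells by 0.74 and changed by -0.20 in control cells with no call, a difference of 0.94 ± 0.13 (log2, SE, adjusted p = 0.000609). The assembly factor gene IBA57 changed with R1881 by 0.02 in silenced cells, without a call, and rose by 0.75 in control cells, a difference of -0.72 ± 0.20 (log2, SE, adjusted p = 0.0272), and rose with SRF siRNA by 1.14 in vehicle. With R1881, the assembly gene NUBP1 rose by 0.97 in silenced and 0.67 in control cells, the cluster carrier gene NFU1 fell by 0.49 and 0.25, and LYRM4, which encodes a partner of the cysteine desulfurase, fell by 0.34 and 0.45. The count for SRF siRNA in vehicle was 4 rather than 11 with the GAPDH covariate. Called differences of R1881 effects in this list numbered 3, and 1 to 4 when single arrays were left out.

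Of 14 genes around NRF2 and BACH1, an activator and a repressor of HMOX1, R1881 raised 8 and lowered 1 in silenced and raised 8 and lowered 4 in control cells (medians of 0.29 and 0.35, against -0.03 and -0.05 over all genes). NFE2L2, which encodes NRF2, rose with SRF siRNA by 1.22 ± 0.10 under R1881 and 1.20 ± 0.10 in vehicle and with R1881 by 0.35 in silenced and 0.33 in control cells (log2). BACH1 changed with R1881 by -0.07 in silenced cells, without a call, and fell by 0.51 in control cells. SLC7A11, the cystine importer, moved against NFE2L2 with SRF siRNA, by -1.63 under R1881 and -1.39 in vehicle, and rose with R1881 by 1.31 in silenced and 1.56 in control cells. PRDX1, a peroxiredoxin, fell with R1881 by 0.32 in silenced and 1.02 in control cells, a difference of 0.70 ± 0.12 (log2, SE, adjusted p = 0.00179). TXNRD1, thioredoxin reductase 1, rose with R1881 by 0.23 in silenced and 0.62 in control cells, a difference of -0.39 ± 0.10 (log2, SE, adjusted p = 0.0215). The count for R1881 in control cells was 6 rather than 12 with the GAPDH covariate.

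**Figure D4:**
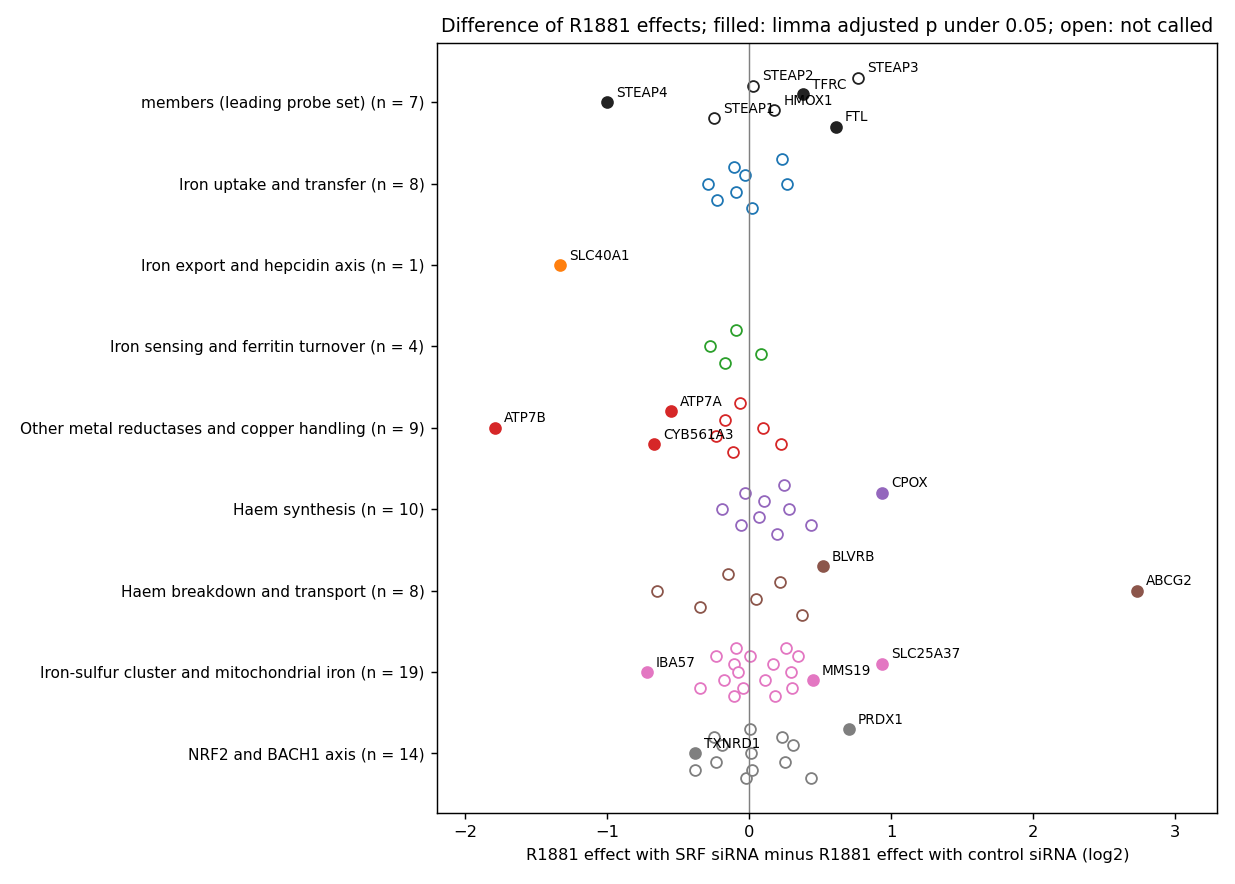
Difference between the R1881 effect with SRF siRNA and that with control siRNA (log2). Points are genes, the 7 leading probe sets of the STEAP and iron genes and the 73 genes of the 8 lists. They are filled where limma's adjusted p was under 0.05, and vertical spread within a row is for legibility. All 7 STEAP and iron genes are named, filled or not, and list genes are named only where filled. STEAP4, SLC40A1 and ATP7B lie to the left and FTL, CPOX, SLC25A37, PRDX1 and ABCG2 to the right. Signals were under 4 for STEAP4 in vehicle, for ABCG2 with R1881 and for SLC40A1 outside silenced vehicle arrays. The differences of these genes follow the levels in their remaining groups.

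For the 4 genes whose group means spanned at least 1 log2 unit, the genes with the most similar pattern over the 12 arrays were found among 10265 by Pearson's r, as a description of arrays that share 4 groups. STEAP4 was most like CCDC141, LONRF1 and ABHD3 (r = 0.999, 0.998 and 0.997). CCDC141 averaged 7.23 ± 0.24 in silenced R1881, 2.69 ± 0.31 in silenced vehicle, 8.01 ± 0.18 in control R1881 and 2.62 ± 0.30 in control vehicle arrays (log2, SD, n = 3 each). FTL was most like TNPO2, PRPF4 and POLR1B (r = 0.994, 0.988 and 0.988), HMOX1 like ATMIN, IFNGR1 and S100P (r = 0.992, 0.990 and 0.988), and STEAP3 like MED26, KLF10 and DFFB (r = 0.957, 0.951 and 0.951).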

How the data were processed

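Values are log2 signals, 1 per probe set and array, in the table the authors deposited; they were made with GCRMA per the submitters' processing notes, with its version not given in the sources used here. Per the labels, cRNA came from 3.5 µg of total RNA on Affymetrix arrays. No further normalization was applied (array medians 2.97 to 3.06). Of 54675 probe sets, 41091 had 1 symbol, 1801 several, 11721 none here and 62 were controls. Probe sets above 4 on at least 3 of 12 arrays were kept, 21526 in all. The 4 group means were fitted per probe set with limma 3.58.1 (R 4.3.3), with Benjamini-Hochberg adjustment over all of them, and called at an adjusted p under 0.05. The fit was tested on simulated data. The members and lists were chosen with earlier results of these data known. List genes were named by rule: the largest called change each way per list and contrast, and partners of the members. Alternatives changed the filter, a floor, normalization, variance model, block, covariate, threshold and arrays. Replicate numbers did not pair the arrays (same-number correlations of deviations -0.18 to 0.19). The number of arrays limits the precision.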

Additional observations from a re-analysis of the deposited data

Results flagged for a closer look

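For 6 of the 13 probe sets tested, limma's test of the difference itself called the response to R1881 unequal with SRF siRNA and with control siRNA. The difference, silenced minus control, was -1.0 for the leading STEAP4 probe set and -1.32 for the other on the log2 scale. All STEAP4 vehicle signals were under 4, so these differences follow the levels under R1881 and cannot show an unequal response by themselves. It was 0.61 for the leading FTL probe set and 0.54 for the other. For TFRC it was 0.38 for the leading probe set and 0.32 for the next in mean signal, calls lost in 9 and 11 of 12 omissions of 1 array. Groups of 3 arrays are too small for a test of single outlying arrays, so none was made.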

How the results depend on the processing

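Of 65 single changes, 39 kept call and direction in all of up to 24 alternatives, 16 lost a call, 7 gained one and 3 reversed in at least 1. Of the 37 called, 20 kept call and direction throughout. With 1 probe set per gene the members called for R1881 in control cells were 6 (of 7), and all called numbered 5453 for R1881 in silenced and 6225 in control cells, 2441 for the difference, and 6058 and 5717 for SRF siRNA under R1881 and in vehicle, of 10265. With the GAPDH covariate, members called were 6 for R1881 in control cells, 3 for the difference and 3 for SRF siRNA in vehicle, and all called for R1881 in control cells were 7362. At an adjusted p under 0.01, members called were 2 for the difference and 2 for SRF siRNA in vehicle, and 2016 of all for the difference. Leaving out single arrays gave 2 to 5 members for the difference and 3 to 6 for SRF siRNA in vehicle. The third TFRC probe set in mean signal changed to 1.36 for R1881 in control cells (adjusted p = 0.0227) and 0.25 in silenced cells with the covariate. In silenced cells it changed to 0.18 without silenced R1881 array 3 and 0.19 without array 3 of both silenced groups, against -0.71 at the lowest, without silenced R1881 array 2. STEAP1 with R1881 in silenced cells was 0.038 after quantile normalization. With replicate number as a block, the TFRC differences had adjusted p of 0.0665 and 0.0661, STEAP2 with R1881 in silenced cells 0.0768 and the leading FTL probe set with SRF siRNA in vehicle 0.0733; the block changed no other call of a member probe set. The cause was not tested. STEAP4 vehicle signals lie under 4, which limits its folds.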

Other observations

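The nearest genes with a tested probe set on either side of the STEAP genes, taken by position, are given beside them. Genes without a tested probe set were passed over, so these need not be the adjacent genes. The differences between genes were not tested. CFAP69, 1.77 kb past STEAP2, was lowered by R1881, with changes of -1.09 ± 0.08 in SRF-silenced and -1.17 ± 0.08 in control cells (log2, SE, limma adjusted p = 5.82e-07 and 2.15e-07), where STEAP2 changed by -0.22 and -0.25. SRI, which encodes the calcium-binding protein sorcin and lies 43.9 kb from STEAP4, changed with R1881 by 0.12 in silenced cells, without a call, and rose by 0.31 in control cells. C2orf76, 15.5 kb past STEAP3, rose with R1881 by 1.53 ± 0.09 in silenced and 1.81 ± 0.09 in control cells, while STEAP3 changed by -0.01 and -0.78. On the other side of STEAP3 the nearest tested gene was INSIG2, 1113 kb away. INSIG2 changed with R1881 by -2.79 ± 0.07 in silenced and -1.73 ± 0.07 in control cells. The difference of these effects was -1.05 ± 0.10 (log2, SE, limma adjusted p = 4.5e-05).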
